A study of Mus musculus with 10 samples.

Results

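The 10 genes described here carry antigen presentation by major histocompatibility complex (MHC) molecules. They are the class II chain genes H2-Aa, H2-Ab1 and H2-Eb1, the class II chaperone gene Cd74, the class II transactivator gene Ciita, the class I heavy chain genes H2-K1 and H2-D1, and the class I partner genes B2m, Tap1 and Psmb8. They were found by looking up their symbols among the Entrez Gene identifiers of the count tables, and all 10 were present among 26301 identifiers. All 10 also passed the filter on low counts, which 15540 genes passed.

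Spinal cord of C57BL/6 mice, an inbred laboratory strain, gave RNA for sequencing at 8 and 4 weeks of age, with no treatment or mutation named in the labels. There were 3 female and 3 male libraries at 8 weeks, and 2 female and 2 male libraries at 4 weeks. The replicates are numbered but not stated to come from separate animals, so p-values measure the spread between these libraries, which may be technical. Libraries held 8453559 to 11594610 counts, and the cord markers Mbp, Gfap, Snap25 and Nefh were abundant in all 10. The 10 cord markers, led by Mbp, summed to 39284 to 45034 CPM (counts scaled to the library's total) at 8 weeks and 55310 to 62264 CPM at 4 weeks. Of these markers 1 was called higher and 2 lower at 8 weeks, beside 1.61% and 5.01% of all tested genes.

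Class I molecules display peptides from inside the cell to CD8 T cells. The immunoproteasome cuts the peptides, the TAP transporter moves them into the endoplasmic reticulum, and beta-2-microglobulin holds the heavy chain in shape. Class II molecules display engulfed material to CD4 T cells, and the invariant chain encoded by Cd74 guards their groove until they reach an endosome. In a healthy cord class II is known mostly from macrophages of the meninges and vessels, dendritic cells and a minority of microglia, whereas class I is made at low level by many cells.

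Class II and class I promoters are known to share an X box, bound by RFX and CREB proteins, and a Y box, bound by NF-Y. CIITA, or NLRC5 for class I, docks on the proteins bound there. RefSeq promoter windows of build GRCm38.p6, 250 bases before to 50 after the annotated start, were listed for 7 of the 10 genes, and not for H2-Ab1, Cd74 and Ciita. In 5 of these 7 windows a TGANG core, the CREB side of the X box, was followed 20 to 22 bases later by an ATTGG core of the Y box. The stretches that hold the pair are shown because they are the element that both classes share. Each runs 5′ to 3′ on the gene's own strand, with capitals marking TGANG and ATTGG and, in H2-K1 and H2-D1, a match to GGGATNCCC, the core of an NF-kappaB type site.
H2-Aa, chr17:34287865-34287911, minus strand: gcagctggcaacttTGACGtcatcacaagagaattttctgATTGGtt
H2-Eb1, chr17:34305767-34305814, plus strand: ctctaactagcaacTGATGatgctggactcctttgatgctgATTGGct
H2-K1, chr17:34000357-34000460, minus strand: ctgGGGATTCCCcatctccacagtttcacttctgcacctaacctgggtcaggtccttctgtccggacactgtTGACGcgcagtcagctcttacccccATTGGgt
H2-D1, chr17:35262921-35263024, plus strand: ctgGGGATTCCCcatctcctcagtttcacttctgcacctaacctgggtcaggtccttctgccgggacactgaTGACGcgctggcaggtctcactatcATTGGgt
B2m, chr2:122147595-122147640, plus strand: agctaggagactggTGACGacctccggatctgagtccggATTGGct

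Over all promoter windows the spaced pair was rarer than either core alone. Searched on both strands of 27025 promoter windows of the same length, TGANG alone was in 89.4% and ATTGG alone in 37.9%, while the spaced pair was in 0.973%. The gap between the cores was 21 bases in H2-Aa, 22 in H2-Eb1, and 20 in H2-K1, H2-D1 and B2m. The searched gap of 20 to 22 bases is the same as the range in these windows, and shares at other gaps were not computed. The share of 0.973% is therefore a description and not a test of these windows. GGGATNCCC was in 282 windows, or 1.04%, those of H2-K1 and H2-D1 among them. Both also held GAANNGAAA, the core of an interferon response element, which was in 7.56% of windows. In both genes it lay on the strand opposite to the gene's own. The H2-K1 and H2-D1 stretches matched at 93 of 104 positions, or 89.4%. The windows of Tap1, the gene of a TAP transporter subunit, and Psmb8, the gene of an immunoproteasome subunit, did not hold the pair. A match is a description of letters, not a measured binding site. These positions belong to GRCm38, whereas the submitters' processing notes name mm9, so they locate the sequences only.

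**Figure D1:**
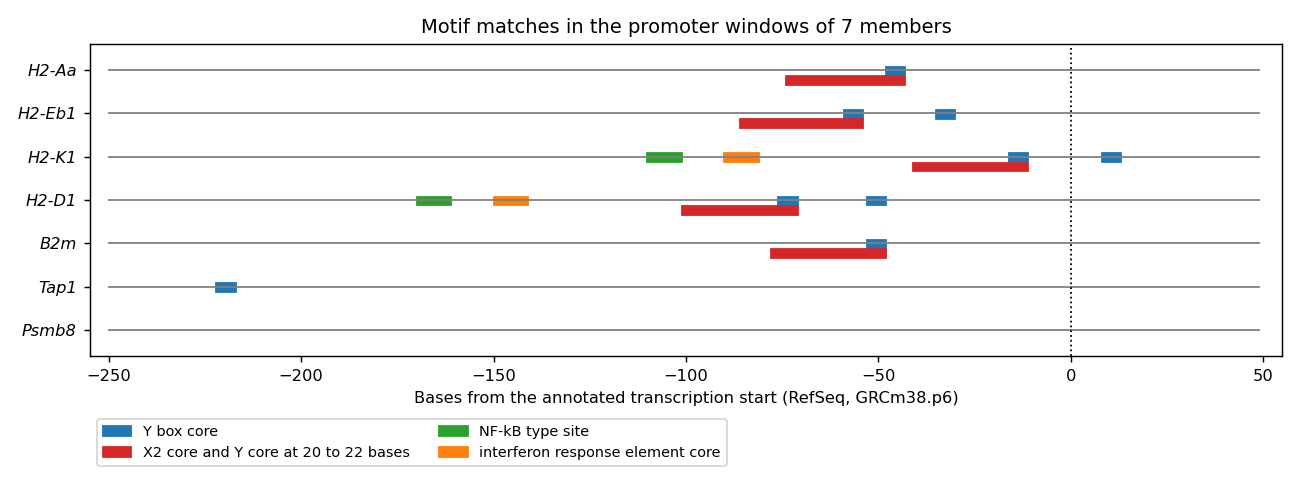
Motif matches in the RefSeq promoter windows of 7 of the genes, with bases from the annotated start on the x axis and 1 line per gene. Red bars mark the spaced pair of X2 and Y cores, present in H2-Aa, H2-Eb1, H2-K1, H2-D1 and B2m, and blue, green and orange bars mark the Y core, the NF-kappaB type site and the interferon response core.

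Levels between genes were compared as CPM, a gene's count scaled to the total count of its library, per kilobase of RefSeq exon. B2m was highest with a mean of 148 ± 16.0 CPM per kilobase (SD, n = 10 libraries, as for the other genes here). H2-D1 followed with 42.3 ± 3.91, H2-K1 with 16.1 ± 1.35 and Cd74 with 15.4 ± 5.73 CPM per kilobase. The class II chains came next, at 8.12 ± 3.79 for H2-Aa, 5.69 ± 2.64 for H2-Ab1 and 4.35 ± 1.96 CPM per kilobase for H2-Eb1. Psmb8 had 3.18 ± 0.972, Tap1 1.88 ± 0.501 and Ciita, the regulator, 0.200 ± 0.0649 CPM per kilobase. The ranges over libraries separated B2m from H2-D1, H2-D1 from H2-K1, and Tap1 from Ciita. The ranges of all other neighbours in this order overlapped. Such ranges do not compare genes within the same library, so they cannot decide the order of these neighbours. Cd74, for example, had more counts than H2-Aa in every library, before division by exon length. The order of neighbours within libraries was not tested. H2-K1 and H2-D1 are paralogs of similar sequence, and the split of their counts is uncertain because the labels do not say how reads that match both were treated. Without a stated strand setting, reads of B2m and its overlapping neighbour Patl2, and of Ciita and Dexi, cannot be told apart.

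Before the comparisons, 4 libraries need a description, because they held raised levels of lung or adrenal markers. Male 8-week libraries 2 and 3 had summed levels of 917 and 106 CPM over 10 lung epithelium markers, against at most 8.67 CPM in the other 8 libraries. Male 4-week libraries 1 and 2 had 137.8 and 100.1 CPM over 8 adrenal markers, against at most 17.1 CPM elsewhere, and male 4-week library 1 had the highest skeletal muscle level, 2113 CPM over 12 markers. The class II changes are given with and without these libraries. Skeletal muscle markers differed by age in both sexes, at 652 to 2113 CPM at 4 weeks, females 814 to 876 CPM, against 220 to 353 CPM at 8 weeks. Leaving out male libraries does not remove this difference, and its part in the class II changes was not tested.

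The class II genes held the only call for age. All 5 class II genes had a positive log2 fold change of 8 over 4 weeks, and H2-Aa, the alpha chain of the I-A molecule, passed the test. All 5 class I genes had a negative one, and none passed. The threshold was an adjusted p of 0.05. Of the 10 genes 1 passed, in the higher direction, beside 6.62% of all 15540 tested genes, of which 1.61% lay higher and 5.01% lower at 8 weeks. The median log2 fold change was 0.65 over the 5 class II genes and -0.14 over the 5 class I genes, beside 0.01 over all tested genes.

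H2-Aa had 8.76, 10.9 and 7.93 CPM in 8-week female libraries 1 to 3 and 17.5, 13.5 and 9.66 CPM in 8-week male libraries 1 to 3, against 4.73 and 3.75 CPM in 4-week female libraries 1 and 2 and 10.3 and 4.57 CPM in 4-week male libraries 1 and 2. Every 8-week library lay above 3 of the 4 4-week libraries, and the ages overlapped because male 4-week library 1 stood as high as several 8-week ones. Mean levels were 11.4 ± 3.56 CPM at 8 weeks (SD, n = 6) and 5.84 ± 3.01 CPM at 4 weeks (SD, n = 4). H2-Aa rose 1.98-fold at 8 weeks, a log2 fold change of 0.99 (SE 0.22, 95% interval 0.51 to 1.46), with an adjusted p of 0.0150 (edgeR, quasi-likelihood F test, Benjamini-Hochberg over all tested genes). Without the lung-bearing male 8-week libraries 2 and 3, H2-Aa changed by 1.18 (adjusted p = 0.0139, edgeR). Without these and male 4-week library 1, a set chosen after seeing the data, it changed by 1.40 (adjusted p = 0.00222, edgeR). The call was lost by a small margin without female 4-week library 2, at 0.91 (adjusted p = 0.0518, edgeR), and without both male 4-week libraries, at 1.11 (adjusted p = 0.0533, edgeR).

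H2-Ab1, the beta chain that pairs with H2-Aa, had 4.02, 8.34 and 5.11 CPM in 8-week females and 13.5, 10.5 and 7.19 CPM in 8-week males, against 4.61 and 4.93 CPM in 4-week females and 7.38 and 3.36 CPM in 4-week males. Its 3 highest libraries were all of 8 weeks, but 8-week female library 1 lay below 3 of the 4 4-week libraries. A log2 fold change of 0.65 (SE 0.27) did not pass the test (adjusted p = 0.178, edgeR). It was 0.37 without male 4-week library 2 and 0.27 without both male 4-week libraries, against 0.74 without male 8-week libraries 2 and 3 and 0.85 when male 4-week library 1 was left out as well (adjusted p 0.248 to 0.763 over these 4 settings, edgeR).

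H2-Eb1, the beta chain of the I-E molecule, had 5.05, 7.72 and 7.20 CPM in 8-week females and 13.8, 11.2 and 6.91 CPM in 8-week males, against 4.50 and 3.85 CPM in 4-week females and 8.44 and 3.88 CPM in 4-week males. Male 4-week library 1 again stood among the 8-week libraries, and the other 3 4-week libraries lay below all 6 of them. Its log2 fold change of 0.75 (SE 0.24) did not pass the test (adjusted p = 0.0770, edgeR), but it was 0.98 (adjusted p = 0.0393) without male 4-week library 1 and 0.87 (adjusted p = 0.0326) without male 8-week library 3, both by edgeR. It was 0.52 without male 4-week library 2 (adjusted p = 0.153), 0.66 without both male 4-week libraries (adjusted p = 0.335), 0.90 without male 8-week libraries 2 and 3 (adjusted p = 0.0714) and 1.07 when male 4-week library 1 was left out with these (adjusted p = 0.0351), by edgeR. H2-Ea, the alpha chain partner of H2-Eb1, had 0 counts in all 10 libraries, which allows up to 3 counts in 96808089, or 0.031 CPM. Mice of the H2b haplotype, such as C57BL/6, are known to lack H2-Ea expression.

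Cd74, the invariant chain, had 17.5, 24.8 and 19.4 CPM in 8-week females and 37.2, 32.3 and 21.9 CPM in 8-week males, against 17.9 and 11.3 CPM in 4-week females and 23.1 and 12.4 CPM in 4-week males. It was the class II gene with the most counts, 115 to 355 per library, and so the most precise of them. Its order of libraries was close to that of H2-Aa, with 3 of the 6 8-week libraries above every 4-week one. For Cd74 the log2 fold change was 0.65 (SE 0.20, adjusted p = 0.0644, edgeR), and it passed without male 4-week library 1 (0.80, adjusted p = 0.0487), female 4-week library 1 (0.82, adjusted p = 0.0337) or male 8-week library 3 (0.74, adjusted p = 0.0371), all by edgeR. It was 0.46 without male 4-week library 2 (adjusted p = 0.118), 0.50 without both male 4-week libraries (adjusted p = 0.376), 0.74 without male 8-week libraries 2 and 3 (adjusted p = 0.0946) and 0.84 when male 4-week library 1 was left out with these (adjusted p = 0.0635), by edgeR. Of all tested genes, 23.4% likewise had at least 3 of the 6 8-week libraries above every 4-week library. None of the 10 genes had ages that did not overlap, against 8.11% of tested genes.

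Ciita, the master regulator of class II transcription, had 1.96, 1.24 and 1.57 CPM in 8-week females and 1.47, 1.78 and 1.23 CPM in 8-week males, against 0.59 and 1.58 CPM in 4-week females and 0.70 and 1.29 CPM in 4-week males. These levels rest on 5 to 19 counts per library. The lowest libraries were of 4 weeks, but the ages overlapped. Its log2 fold change of 0.50 (SE 0.30, 95% interval -0.14 to 1.14) did not pass the test (adjusted p = 0.373, edgeR), and the interval holds both no change and the 0.99 of H2-Aa.

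**Figure D2:**
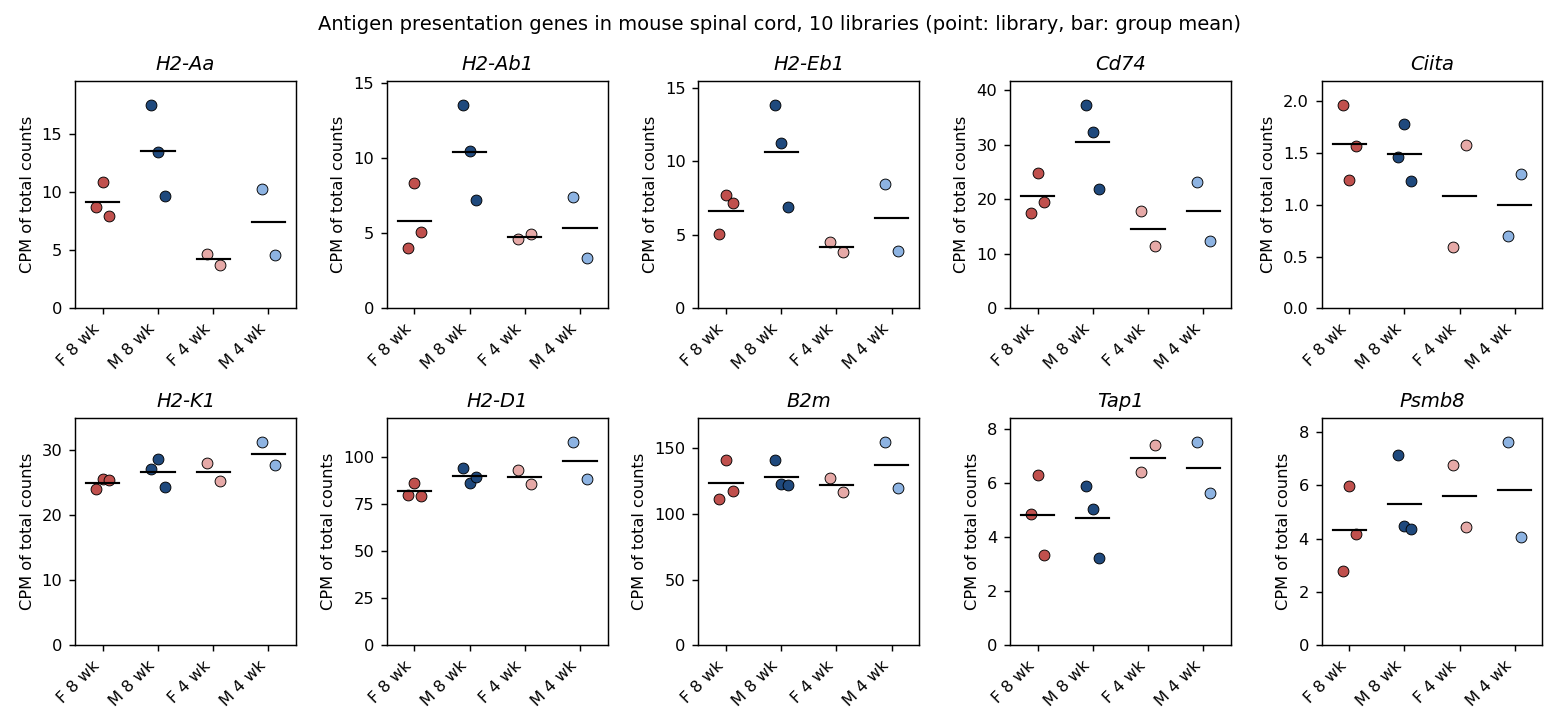
CPM of total counts of each gene in each library, with groups by sex (F, M) and age on the x axis, points for libraries and bars for group means. In H2-Aa, H2-Eb1 and Cd74 the 8-week group means lie above the 4-week means of the same sex, and the first male 4-week library, the upper of its pair, reaches into the 8-week range, at 10.3 CPM for H2-Aa.

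The class I heavy chains were nearly level across ages. H2-K1 had 23.9, 25.5 and 25.4 CPM in 8-week females and 27.1, 28.6 and 24.2 CPM in 8-week males, against 27.9 and 25.3 CPM in 4-week females and 31.2 and 27.6 CPM in 4-week males. All 10 libraries lay close together, with 2 8-week libraries below every 4-week one. The log2 fold change was -0.13 (SE 0.07, 95% interval -0.28 to 0.03, adjusted p = 0.356, edgeR).

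H2-D1 had 79.7, 86.2 and 79.6 CPM in 8-week females and 94.1, 86.1 and 89.3 CPM in 8-week males, against 93.2 and 85.7 CPM in 4-week females and 108 and 88.3 CPM in 4-week males. Male 4-week library 1 was again the highest. The log2 fold change was -0.14 (SE 0.06, adjusted p = 0.225, edgeR). The ratio of H2-D1 to H2-K1 counts stayed between 3.01 and 3.68 at 8 weeks and between 3.20 and 3.47 at 4 weeks.

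B2m had 111.5, 141.4 and 117.2 CPM in 8-week females and 140.9, 122.7 and 121.9 CPM in 8-week males, against 127.6 and 117.1 CPM in 4-week females and 154.8 and 119.7 CPM in 4-week males. With 1079 to 1388 counts per library it was the most precisely counted of the 10 genes. Its log2 fold change of -0.05 had a 95% interval of -0.23 to 0.13 (adjusted p = 0.786, edgeR), and its sign turned when some libraries were left out, to 0.03 without male 4-week library 1.

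Tap1, a subunit of the peptide transporter, had 4.85, 6.28 and 3.34 CPM in 8-week females and 5.86, 5.01 and 3.22 CPM in 8-week males, against 6.39 and 7.40 CPM in 4-week females and 7.50 and 5.61 CPM in 4-week males. Its 4-week libraries were all above 4 of the 6 8-week ones, and the ages overlapped through female library 2 and male library 1 of 8 weeks. Its log2 fold change of -0.51 (SE 0.19, 95% interval -0.92 to -0.09) was the lowest of the 10 genes but did not pass the test (adjusted p = 0.142, edgeR).

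Psmb8, a catalytic subunit of the immunoproteasome, had 2.78, 5.97 and 4.17 CPM in 8-week females and 7.12, 4.46 and 4.35 CPM in 8-week males, against 6.74 and 4.44 CPM in 4-week females and 7.62 and 4.05 CPM in 4-week males. The ages overlapped widely. At 8 over 4 weeks its log2 fold change was -0.24 (SE 0.24, adjusted p = 0.622, edgeR).

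Ratios of counts set the classes against each other. Counts of the 4 class II genes H2-Aa, H2-Ab1, H2-Eb1 and Cd74 amounted to 15.9%, 19.5% and 17.3% of the counts of the 5 class I genes in 8-week females and 29.8%, 27.3% and 18.8% in 8-week males, against 12.1% and 9.96% in 4-week females and 15.9% and 9.88% in 4-week males. Cd74 counts alone were 15.7% to 26.4% of B2m counts at 8 weeks and 9.69% to 14.9% at 4 weeks, 2 ranges that did not overlap. By CPM, 8.11% of tested genes had ages that did not overlap, and no such share was computed for ratios. The ratio of class II to class I counts did overlap, at 15.87% in female 8-week library 1 and 15.92% in male 4-week library 1. These ratios do not depend on library scaling, and no test was made of them. In whole tissue, more class II cells and more class II RNA per cell cannot be told apart.

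**Figure D3:**
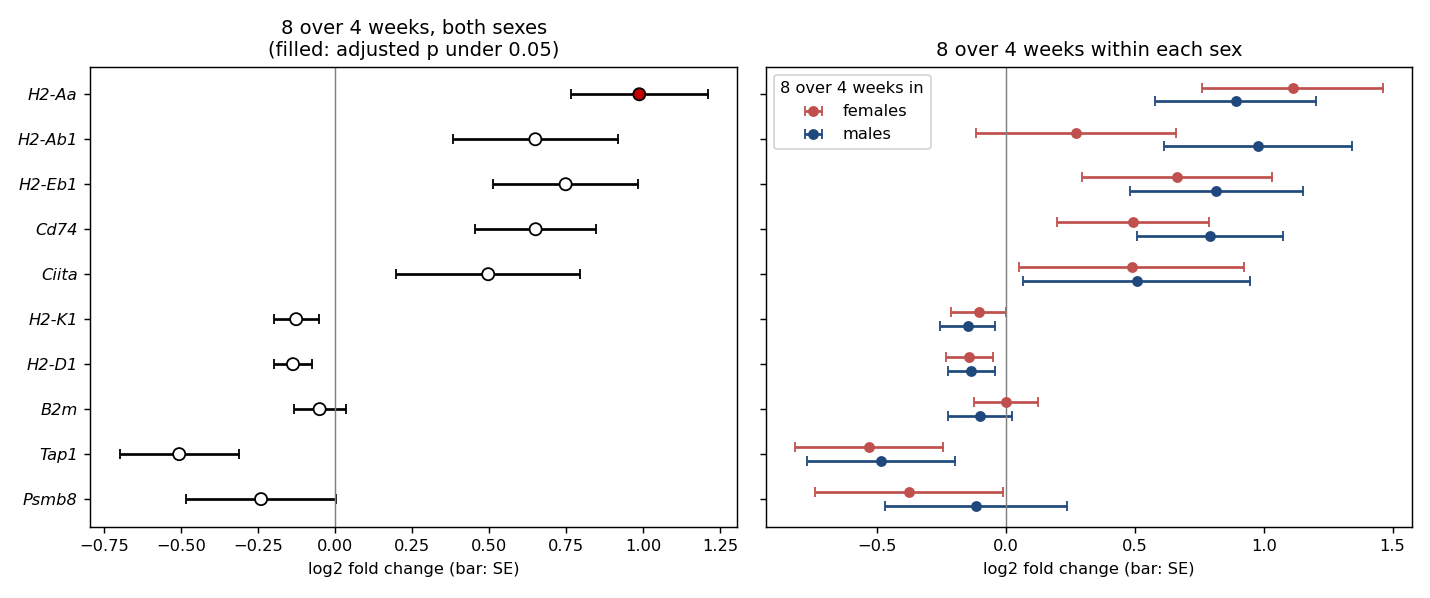
Log2 fold change of 8 over 4 weeks on the x axis for each gene, with bars of 1 SE, over both sexes (left) and within females and males (right). The 5 class II genes lie above 0 and the 5 class I genes below 0 on the left, and H2-Aa, filled, is the gene with an adjusted p under 0.05.

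Within sexes no gene of the 10 passed the test by edgeR, DESeq2 or limma-voom, at unadjusted p-values under 0.05 for 1 gene in females and 4 in males, while 1.45% of tested genes did in females and 3.22% in males. In females the log2 fold change of 8 over 4 weeks was 1.11 (SE 0.35) for H2-Aa, 0.27 (SE 0.39) for H2-Ab1, 0.66 (SE 0.37) for H2-Eb1 and 0.49 (SE 0.29) for Cd74. In males it was 0.89 (SE 0.31), 0.98 (SE 0.36), 0.82 (SE 0.34) and 0.79 (SE 0.28) for the same genes. Adjusted p-values ranged from 0.191 to 0.833 in females and from 0.166 to 0.238 in males over these 4 genes (edgeR, model of the 4 groups). The difference between the sexes' age changes was itself tested, and none of the 10 genes passed or had an unadjusted p under 0.05 by edgeR, nor passed by DESeq2 or limma-voom, against 0.0129% of tested genes. The largest difference was that of H2-Ab1, -0.71 on the log2 scale as the female minus the male change (SE 0.53, adjusted p = 0.981, edgeR). Without male 4-week library 1 and male 8-week libraries 2 and 3, which leaves 1 male library at each age, all 4 class II genes passed in males, led by H2-Ab1 with 1.98 (adjusted p = 0.0443) and H2-Aa with 1.91 (adjusted p = 0.00961), and H2-Aa passed in females with 1.11 (adjusted p = 0.0117), all by edgeR. The lone male library of each age was there assumed to vary like the other groups. The male changes turn on which 4-week library is kept. Without male 4-week library 2 they were 0.40 for H2-Aa, 0.50 for H2-Ab1, 0.34 for H2-Eb1 and 0.41 for Cd74, and without male 4-week library 1 they were 1.54, 1.60, 1.43 and 1.27 for the same genes, of which H2-Aa passed (adjusted p = 0.0356, edgeR).

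The 4 class II genes other than Ciita had lower levels in females than in males over both ages, without passing the test. The female over male log2 fold change was -0.60 for H2-Aa (SE 0.21, adjusted p = 0.589, edgeR), -0.60 for H2-Eb1, -0.56 for H2-Ab1 and -0.43 for Cd74, and the unadjusted p-values of these 4 genes were 0.0124 to 0.0473. Without male 8-week libraries 2 and 3 it lay between -0.83 and -0.53 over the 4 genes, without both male 4-week libraries between -0.81 and -0.53, and without male 4-week library 1 and male 8-week libraries 2 and 3 between -0.64 and -0.42, with none passing. Border macrophage markers differed in the same direction, with sums of 18.7 to 25.7 CPM in females and 27.1 to 66.8 CPM in males. The top male sum was that of the lung-bearing male 8-week library 2, where Cbr2 alone gave most of the counts. All 7 tested genes had a negative log2 fold change (median -0.45, none called). The part of these markers in the class II values was not tested. For the class I genes and Ciita the female over male log2 fold change lay between -0.17 and 0.12. None of the 10 genes passed for sex by edgeR, DESeq2 or limma-voom, against 0.0901% of tested genes by edgeR. At 8 weeks the highest class II sums were those of male libraries 1 and 2, 81.9 and 67.5 CPM, while the 3 female libraries had 35.4, 51.8 and 39.7 CPM, and male library 3, at 45.6 CPM, lay below the highest of them. At 4 weeks the female libraries had 31.7 and 23.9 CPM and the male libraries 49.2 and 24.2 CPM.

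The class II genes varied together from library to library. On log2 CPM over the 10 libraries H2-Eb1 and Cd74 had a Pearson r of 0.962 and a Spearman rho of 0.964 (permutation p 1e-05, the smallest the permutations can give, and 7e-05, adjusted p 0.00045 and 0.00157 over the 45 pairs of the 10 genes). Without the 2 libraries farthest from the median of H2-Eb1 r was 0.938, and within the 6 8-week libraries it was 0.971. The other pairs among H2-Aa, H2-Ab1, H2-Eb1 and Cd74 had r of 0.841 to 0.944, with permutation p-values adjusted over the 45 pairs of at most 0.0148. The permutations ran over all 10 libraries without regard to age or sex, so their p-values also take in differences shared between groups. No value adjusted for both age and sex was computed. The 4-week libraries are too few for a value of their own. Ciita did not follow them, with r of 0.02 to 0.20 against these 4 genes (lowest permutation p 0.58), on few counts. Against H2-D1 its r was -0.80 (rho -0.81, permutation p 0.00534 and 0.00755, adjusted 0.024 and 0.0425), and -0.61 without the 2 farthest libraries and -0.60 within 8 weeks. Against Psmb8 its r was -0.73 (rho -0.56, permutation p 0.013 and 0.0974, adjusted 0.0487 and 0.219), and -0.55 without the 2 farthest and -0.63 within 8 weeks. B2m and Psmb8 varied together as well (r 0.901, rho 0.842, permutation p 0.00029 and 0.0038, adjusted 0.00261 and 0.0244 over the 45 pairs). Their r was 0.934 without the 2 farthest libraries and 0.934 within 8 weeks. H2-K1 and H2-D1 had r of 0.763 (rho 0.648, permutation p 0.01 and 0.049, adjusted 0.0409 and 0.169), and 0.385 within 8 weeks. Against the class I genes, H2-Aa, H2-Ab1, H2-Eb1 and Cd74 had r of -0.236 to 0.557 over the 10 libraries. Within 8 weeks these r were 0.419 to 0.882, so covariation among the 8-week libraries was not particular to class II.

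The rest of the class II pathway gave 1 call. Of 19 further genes, 16 were tested, 1 was called higher and 0 lower at 8 weeks, beside 6.62% of all tested genes called in either direction, with a median log2 fold change of -0.02. The gene called was Marchf1, a ubiquitin ligase known to remove class II from the cell surface. It had 20.2 ± 1.11 CPM at 8 weeks (SD, n = 6) and 15.5 ± 2.17 CPM at 4 weeks (SD, n = 4), a log2 fold change of 0.36 (SE 0.10, adjusted p = 0.0380, edgeR). Its call was lost without any single library other than male 4-week library 2 or male 8-week library 1, with adjusted p-values by edgeR of up to 0.111, that without male 4-week library 1, and at 0.169 without male 8-week libraries 2 and 3. Nfya, a subunit of the Y box factor NF-Y, had -0.29 (SE 0.09, adjusted p = 0.0657) and Lgmn, an endosomal protease, -0.16 (SE 0.05, adjusted p = 0.0709), both by edgeR. The peptide exchange factor genes H2-DMa and H2-DMb1 had log2 fold changes of 0.13 and 0.02, and Rfx5, an X box factor gene, had 0.02.

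The class I pathway and interferon gamma signalling gave no call by edgeR. Of 19 further class I pathway genes 17 were matched and 16 tested, and none was called by edgeR, 1 at an unadjusted p under 0.05, with a median log2 fold change of -0.01. Those of lowest p were Pdia3, a chaperone of peptide loading (-0.19, SE 0.06, adjusted p = 0.0764), H2-M3, a nonclassical class I gene (0.26, adjusted p = 0.299), and Psmb10, an immunoproteasome subunit (0.16, adjusted p = 0.408), by edgeR. Nlrc5, the class I transactivator, had 0.20 and Psmb9, the immunoproteasome gene beside Tap1, -0.15. Interferon gamma is the best known inducer of both classes, and its own gene Ifng had 1 count in all 10 libraries together. Of the 10 genes of interferon gamma signalling 9 were tested and none was called, nor had any an unadjusted p under 0.05. Irf8 had -0.36 (adjusted p = 0.309), Jak1 0.09 (adjusted p = 0.374) and Ifngr1, a receptor chain, -0.12 (adjusted p = 0.406), by edgeR. Of 14 interferon-stimulated genes 1 was called, beside 6.62% of all tested genes, namely Rsad2, an antiviral enzyme, which fell by 0.91 (SE 0.23, adjusted p = 0.0316, edgeR), and their median was -0.05. Rsad2 lost its call in 12 of 21 alternatives, with adjusted p-values of 0.00228 to 0.430 over the 21, among them leaving out any single library other than female 4-week library 1, female 8-week library 1 or male 4-week library 2.

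Markers of cells that can carry class II were read beside these changes. The 12 microglia markers summed to 489 to 584 CPM at 8 weeks and 532 to 567 CPM at 4 weeks. Of these, 1 gene was called lower, beside 5.01% of all tested genes. The 9 border macrophage markers summed to 18.7 to 66.8 CPM at 8 weeks and 24.8 to 50.7 CPM at 4 weeks, with none of 7 tested genes called by edgeR. Of these 7, 4 had an unadjusted p under 0.05, all with a negative log2 fold change, among them Mrc1 with -0.72 (SE 0.20, adjusted p = 0.0507, edgeR). The top value was that of male 8-week library 2, where Cbr2 gave 441 of 600 counts. No gene of either list was called higher at 8 weeks, and the part of these cells in the class II change was not tested.

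Lymphoid, dendritic and other cell markers were read in the same way. The 8 B cell markers, with Cd79b the most abundant, summed to 5.68 to 10.6 CPM at 8 weeks and 15.4 to 28.9 CPM at 4 weeks. These ranges did not overlap, and 4 genes were called lower. Of all tested genes, 8.11% had ages that did not overlap and 5.01% were called lower. No such share was computed for sums over marker lists. The 10 dendritic cell markers summed to 28.0 to 34.4 CPM at 8 weeks and 27.9 to 28.7 CPM at 4 weeks, mostly from Flt3, and none of 4 tested genes was called by edgeR or had an unadjusted p under 0.05. All 4 had a positive log2 fold change over both sexes, with a median of 0.16. In males all 4 were positive (median 0.21), but in females only 2 were (median 0.03). The dendritic sum, mostly a reading of Flt3, was higher in 5 of the 6 8-week libraries than in every 4-week library. Xcr1 and Clec9a, which define a dendritic cell type, had at most 3 counts in any library. The 8 T cell markers summed to 1.80 to 2.56 CPM at 8 weeks and 2.01 to 3.16 CPM at 4 weeks, mostly from Lck. The 6 monocyte markers had a median sum of 61 CPM over the 10 libraries, mostly from Vcan with a mean of 47 CPM. Of the monocyte markers 3 were called lower at 8 weeks, beside 5.01% of all tested genes. All 9 neutrophil markers, led by S100a9, were called lower as well. The 6 endothelium markers, led by Slco1c1, had none called by edgeR and 1 with an unadjusted p under 0.05. The part of any of these cells in the class II change was not tested.

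Of 9 tested lung markers 1 was called higher at 8 weeks, beside 1.61% of all tested genes, and 8 had an unadjusted p under 0.05 by edgeR. Male 8-week library 1 had the highest class II sum, 81.9 CPM, at a lung marker sum of 2.51 CPM. Male 8-week library 2, with 917 CPM of lung markers led by Sftpc, was next with 67.5 CPM. The adrenal markers, led by Star, and the muscle markers, led by Pygm, were called lower at 8 weeks in 7 of 8 and 11 of 12 tested genes. Of all tested genes 5.01% were called lower. The part of these organs in the class II values was not tested.

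Genes of the leptomeninges, the inner membranes around the cord, were highest in some of the same libraries as class II, and their list of 10 was chosen after seeing these data. They summed to 243 to 586 CPM at 8 weeks and 269 to 512 CPM at 4 weeks, with Igf2 the most abundant. Male 8-week library 1 was highest in both this list and class II, and male 4-week library 1, at 512 CPM, was highest of the 4-week libraries in both. That 4-week library was also the highest of its age in every other cell and tissue marker list. Male 8-week library 2, next in class II at 67.5 CPM, had only 285 CPM of leptomeninges genes. None of the 10 genes was called for age over both sexes by edgeR and 1 had an unadjusted p under 0.05, with a median log2 fold change of 0.12. In males alone 1 was called higher at 8 weeks, Slc22a8, an organic anion transporter gene (log2 fold change 0.64, SE 0.16, adjusted p = 0.0479, edgeR). Of all tested genes 3.22% were called in males, in either direction. Over both ages the 5 female libraries had 243 to 356 CPM and the 5 male libraries 285 to 586 CPM, and all 10 genes had a negative female over male log2 fold change, with a median of -0.63 and none called. The part of these membranes in the class II values was not tested.

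**Figure D4:**
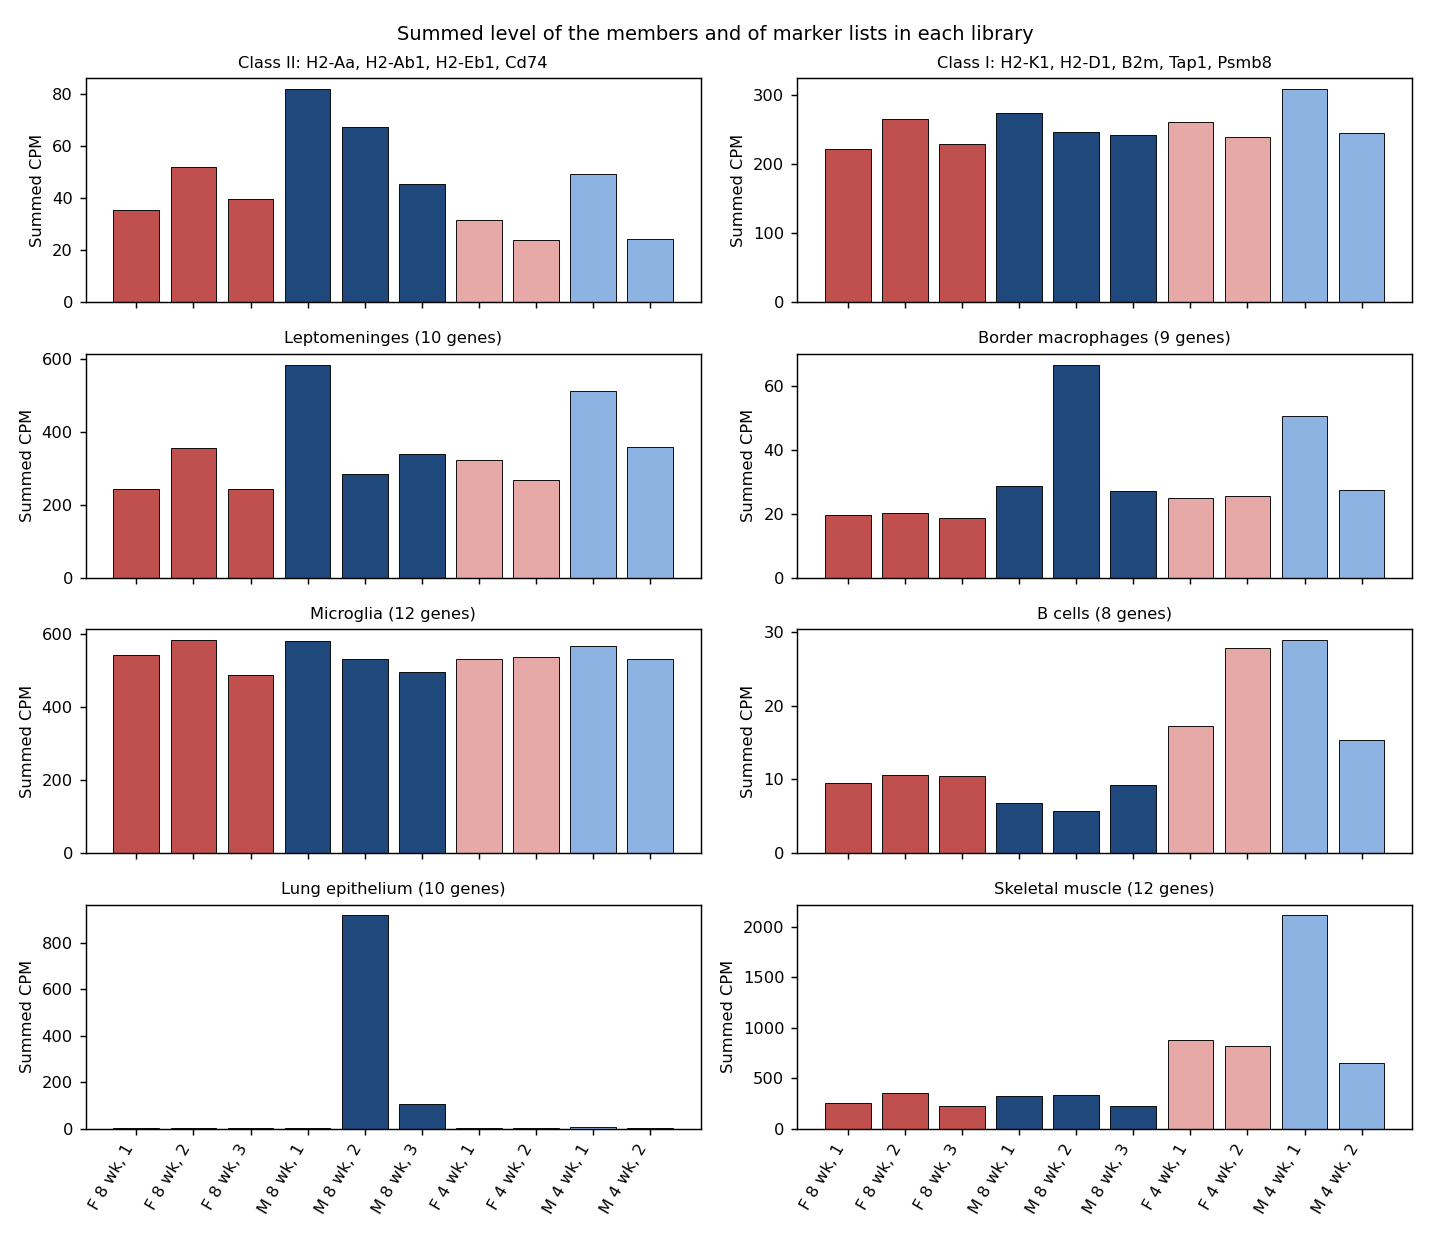
Summed CPM per library, 1 bar each, of the class II and class I genes and of 6 marker lists, with groups by sex (F, M) and age along the x axis and axes that start at 0. Male 8-week library 1 has the highest class II bar (81.9 CPM) and the highest leptomeninges bar (586 CPM) with almost no lung bar, and B cell bars are lower at 8 weeks while class II bars are mostly higher.

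The genes whose pattern was most like the class II genes were found by the root mean square difference between centred log2 CPM profiles over the 10 libraries, among 15530 other tested genes. Among the nearest to the mean profile of H2-Aa, H2-Ab1, H2-Eb1 and Cd74 were Efemp1 (difference 0.24), the pseudogene Mindy4b-ps (0.27), Ptgds (0.27) and the unnamed Entrez Gene 654793 (0.27), where the profile itself varied by 0.56. Ptgds, a prostaglandin D2 synthase gene, was called higher at 8 weeks (log2 fold change 0.60, SE 0.15, adjusted p = 0.0237, edgeR), and Efemp1, a matrix glycoprotein gene, was not (0.44, SE 0.20, adjusted p = 0.233, edgeR). The Ptgds call was lost when female 4-week library 2 (adjusted p = 0.0662), female 8-week library 2 (adjusted p = 0.0583) or both male 4-week libraries (adjusted p = 0.254) were left out, all by edgeR, and by DESeq2 (adjusted p = 0.0512). Nearest to the mean profile of the 5 class I genes were Urm1 (0.07), Nedd8 (0.08), Smim20 (0.08), Ndufs6 (0.08) and Sdf2 (0.08), where the profile itself varied by 0.20.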

How the data were processed

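The authors deposited raw read counts per Entrez Gene identifier, 1 file per library, not normalized. The aligner TopHat2 2.1.0, the counter featureCounts and build mm9 come from the submitters' processing notes. Strand setting and annotation: not given in the sources used here. Identifiers were named from a RefSeq table of GRCm38.p6, which matched 24191 of 26301.

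From these counts, CPM of total counts and CPM per kilobase (RefSeq-matched exons in GENCODE M21) were computed. Tests used edgeR 4.0.16 in R 4.3.3: TMM scaling, filterByExpr (minimum count 10, minimum total 15), two-sided quasi-likelihood F tests and Benjamini-Hochberg adjustment over 15540 genes at 0.05. Age and sex were terms of 1 additive model (7 residual degrees of freedom), and age within a sex and the interaction from a model of the 4 groups with 6. SE is the absolute log2 fold change over the square root of F. Correlations used 100000 permutations. The fit was tested on simulated data. DESeq2 1.42.0, limma 3.58.1, other scalings and filters, a replicate block and left-out libraries were alternatives.

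The genes and lists were chosen with earlier results of these data known. Text names all 10 genes, the 3 genes of lowest p and every called gene of each pathway list, the most abundant gene of each marker list and the 5 nearest in pattern. A few genes that this rule names are not reported here. H2-DMa, H2-DMb1, Rfx5, Nlrc5, Psmb9, Rsad2, Ifng, H2-Ea, Xcr1, Clec9a, Mrc1, Slc22a8 and the fits of Ptgds and Efemp1 are given in addition. Replicates differed by more than sampling noise (chi-square over degrees of freedom 1.92 to 11.2), so each library counted as 1 sample.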

Additional observations from a re-analysis of the deposited data

Results flagged for a closer look

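In the 4 4-week libraries, male library 1 stood apart from the other 3 in H2-Aa, at 10.3 CPM against 3.75 to 4.73 CPM, and in H2-Eb1, at 8.44 CPM against 3.85 to 4.50 CPM. Its gap to the next library exceeded Dixon's 95% critical value in both genes. These were 2 of 20 groups checked, over 10 genes and 2 ages, and chance alone flags about 1 in 20. Of the 4-week libraries, male library 1 also had the highest border macrophage marker sum, at 50.7 CPM against 24.8 to 27.6 CPM. The same held for every other cell and tissue marker list, those of leptomeninges, skeletal muscle, adrenal, B cells, monocytes and neutrophils among them. It held as well for microglia, at 567 CPM against 532 to 538 CPM, and for the cord markers, at 62264 CPM against 55310 to 60591 CPM. The part of any of these in its class II level was not tested.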

How the results depend on the processing

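Over both sexes the directions of the class II age changes held under every alternative run, and H2-Aa kept its call in 19 of 21, with log2 fold changes of 0.78 to 1.40. Genes called for age numbered 1028 (250 higher, 778 lower), with 474 (74 and 400) without male 8-week libraries 2 and 3, 393 (71 and 322) without both male 4-week libraries and 500 (82 and 418) without male 4-week library 1 and male 8-week libraries 2 and 3. Leaving out 1 library gave 719 to 1473 (143 to 550 higher, 576 to 923 lower). Of the 10 genes described, 1 was called higher, but 3 with no filter, DESeq2 or the replicate block, 2 without those 3 libraries, 0 without both male 4-week libraries, and 0 to 3 with 1 library left out. In males 4 and in females 1 were called without those 3 libraries, and 0 to 1 in males with 1 library left out.

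Other counts moved too. For sex 14 genes were called, 60 with no filter, 35 by DESeq2, 38 with the replicate block, 9 without both male 4-week libraries and 10 to 28 with 1 left out. For the interaction 2 were called, 1 by limma-voom, 0 without male 8-week libraries 2 and 3 or without the 3 libraries, and 1 to 2 with 1 left out. In males 501 were called, 15 without male 8-week libraries 2 and 3, 106 without the 3 libraries and 188 to 1199 with 1 left out. In females 226 were called, 340 with no filter, 118 and 404 in those same 2 settings, and 62 to 394 with 1 left out.

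Small differences turned sign. B2m for age became 0.0143 without male 8-week libraries 2 and 3 and 0.0638 without the 3 libraries, and lay between -0.108 and 0.0318 with 1 left out, positive without male 4-week library 1. Tap1 for sex became -0.0374 without male 8-week libraries 2 and 3, and lay between -0.0311 and 0.198 with 1 left out, negative without male 8-week library 3 or female 8-week library 2. Ciita for sex became -0.0168 without the 3 libraries, and lay between -0.0673 and 0.265 with 1 left out, negative without female 4-week library 2. H2-Ab1 for age in females lay between -0.0885 and 0.483 with 1 left out, negative without female 8-week library 2. The cause was not tested, though left-out libraries also leave fewer samples.

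Same-numbered libraries correlated at -0.213 to 0.236 over 13 pairs, and differently numbered ones at -0.254 to 0.254. In the 4-week groups the deviations from the group mean mirror each other, so these values are not independent. No pairing by number was seen, but none can be excluded. With the replicate block 808 genes were called for age, H2-Aa had 1.15 (adjusted p = 0.00260, edgeR), and H2-Eb1 and Cd74 passed. Ciita, with 5 to 19 counts per library, is limited by depth.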
